A study of Mus musculus with 12 samples.

Results

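The 9 genes described here write, copy, remove or protect DNA methylation, and their mRNA levels were compared in PGCLCs, primordial germ cell-like cells of the mouse. These cells are grown in culture and resemble the embryonic founders of eggs and sperm, here sorted from embryoid bodies for CD61 and SSEA1. The genes were the methyltransferase genes Dnmt1, Dnmt3a and Dnmt3b, the cofactor gene Dnmt3l, Uhrf1, the oxidase genes Tet1 and Tet2, and the imprint guards Zfp57 and Trim28. The genes were taken by symbol from a table of 12955 genes; 9 of the 9 were listed, and 9 of the 9 passed the filter on low values that 12059 genes passed. The starting cells were J1 embryonic stem cells, a male mouse line. Poly(A)-enriched RNA was sequenced from 12 libraries in 6 groups of 2.

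The groups were OE at day 6, EV at day 6, OE at day 2, dTAG13 for 2 days at day 2, DMSO for 2 days at day 2, and EV at day 2. The labels do not spell out OE and EV, do not say which gene a vector carried, and do not state a genotype, a tag or a clone number for any group. The series names Tex10, which encodes a nuclear protein known in mouse embryonic stem cells as a partner of SOX2. dTAG13 is a small molecule that sends proteins carrying a matching tag to the proteasome, and DMSO is its solvent. OE was compared with EV at day 6 and at day 2, and the 2 effects with each other; dTAG13 was compared with DMSO, day 6 with day 2 in OE and in EV, and the DMSO cells with the EV cells of day 2. Nothing in the labels says that the 2 libraries of a group came from separate cultures, so p-values measure the spread between these libraries, which may be technical.

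In mammalian cells DNMT3A and DNMT3B place methyl groups on unmethylated CpG sites, and DNMT3L, which has no catalytic activity of its own, helps them. UHRF1 recognises hemimethylated sites behind the replication fork and brings in DNMT1, which copies the mark to the new strand. TET1 and TET2 oxidise methylcytosine, a step towards its removal. ZFP57 binds methylated imprinting control regions and recruits TRIM28 (also called KAP1), whose partners keep those regions silent and methylated. Mouse primordial germ cells are known for the loss of most of their DNA methylation, imprints included. Methylation itself was not measured here.

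Tex10 was measured first as a check of the labels. It stood at 259 and 269 FPKM in the OE libraries and 65.7 and 81.5 FPKM in the EV libraries at day 6, and at 403 and 378 FPKM in OE and 119 and 145 FPKM in EV at day 2. The log2 changes were 1.84 at day 6 and 1.57 at day 2. FPKM are mapped fragments scaled to transcript length and to library size, so levels can be set beside each other between genes. Tex10 was at 45.2 and 36.5 FPKM with dTAG13 and 61.7 and 56.8 FPKM with DMSO, and the difference in mRNA says nothing of the protein that dTAG13 acts on. The first dTAG13 library stood apart: 2008 of its genes (15.5%) were listed at 0, against 18 to 127 in the other libraries, although none of the 9 genes was at 0 there. Summed FPKM ran from 550230 to 673435, and the number of reads is not known. Of 9 PGC markers 8 were in the table, with Prdm14 at 14.9 to 36.6 FPKM, Tfap2c at 36.7 to 121 FPKM and Itgb3, which encodes CD61, at 4.39 FPKM or less and at 0 in the first dTAG13 library. Of 5 fibroblast markers only Col1a1 was in the table, at 0 to 0.834 FPKM. Of 4 neural markers 2 were in the table, and they summed to 2.29 to 4.48 FPKM.

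Positions are from GENCODE M21 on mm10. Dnmt3b (chr2:153649450-153687730, plus strand) was the most variable of the 9 genes, with a 6.77-fold span between its highest and lowest group means. Its level was 13 and 11.6 FPKM in OE and 22.9 and 24.8 FPKM in EV at day 6. At day 2 it was 86.9 and 79.7 FPKM in OE and 79.9 and 72.4 FPKM in EV. With dTAG13 it was 24.3 and 26.1 FPKM, against 40.3 and 45.1 FPKM with DMSO. At day 6 both OE libraries lay below both EV libraries, and at day 2 both dTAG13 libraries lay below both DMSO libraries. Between day 6 and day 2 neither the OE nor the EV libraries overlapped.

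Tests were made with limma on log2(FPKM + 1) over 12059 genes, with Benjamini-Hochberg adjustment, and a gene was called when its adjusted p was below 0.05. Dnmt3b fell in OE against EV at day 6 (log2 change -0.90, SE 0.13, adjusted p = 0.00712), a ratio of mean FPKM of 0.516. At day 2 its difference between OE and EV was 0.13 (95% interval -0.15 to 0.41, adjusted p = 0.807). Dnmt3b fell with dTAG13 against DMSO (log2 change -0.74, SE 0.13, adjusted p = 0.00732). Day 6 against day 2 gave falls in both OE and EV, with log2 changes of -2.66 in OE (SE 0.13, adjusted p = 4.22e-06) and -1.63 in EV (SE 0.13, adjusted p = 5.88e-05), and both calls held in the 5 fits run for each, without 1 of the 4 libraries compared or the first dTAG13 library. In these bulk libraries, fewer cells that express a gene and less RNA per cell cannot be told apart. The call at day 6 between OE and EV was lost without EV replicate 2 or without either OE library, with changes of -0.98 to -0.83 and adjusted p of up to 0.101. The dTAG13 call was lost without DMSO replicate 2 (highest adjusted p = 0.0859).

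The 2 control conditions at day 2 also differed in Dnmt3b. DMSO libraries had 40.3 and 45.1 FPKM, against 79.9 and 72.4 FPKM in EV libraries, a log2 change of -0.82, SE 0.13, adjusted p = 0.0254. That call was lost when any 1 of the 4 libraries was left out (adjusted p of up to 0.353) and with the replicate number as a block (adjusted p = 0.0532). Tex10 was also lower with DMSO (61.7 and 56.8 FPKM) than in EV at day 2 (119 and 145 FPKM), with a limma log2 change of -1.13 (SE 0.15, adjusted p = 0.0104). The labels do not say whether DMSO and EV cells are the same line, so levels with dTAG13 are read here against DMSO alone.

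**Figure D1:**
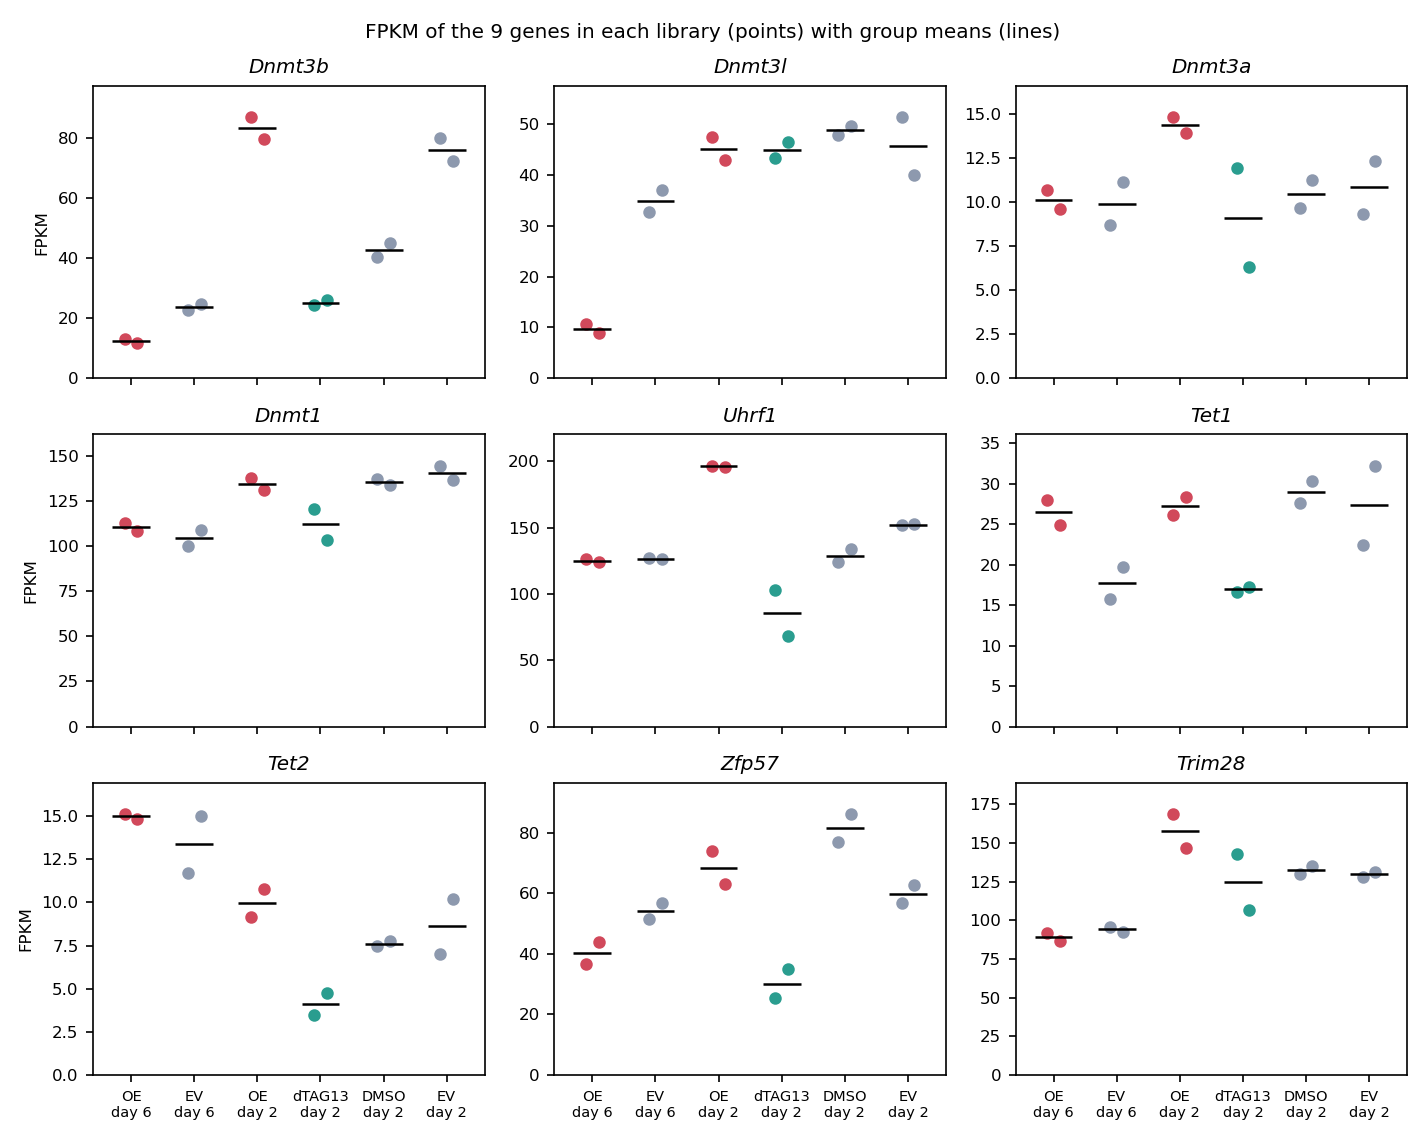
FPKM of the 9 genes (vertical axes, each from 0) in the 2 libraries of each group (points) with group means (lines). Dnmt3b was lowest in OE at day 6, as was Dnmt3l, and Zfp57 and Uhrf1 were lowest with dTAG13.

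Dnmt3l (chr10:78041947-78063622, plus strand) followed a different course. It was at 10.6 and 8.83 FPKM in OE and 32.7 and 37.0 FPKM in EV at day 6, at 47.5 and 42.9 FPKM in OE and 51.3 and 40.1 FPKM in EV at day 2, and at 43.4 and 46.5 FPKM with dTAG13 and 47.9 and 49.7 FPKM with DMSO. The 2 OE libraries of day 6 were far below the other 10, which lay between 32.7 and 51.3 FPKM. Dnmt3l fell in OE against EV at day 6 (log2 change -1.74, SE 0.15, adjusted p = 0.00106), and this call held in the 5 fits that left out 1 of the 4 libraries compared or the first dTAG13 library (-1.86 to -1.62). In OE it also fell at day 6 against day 2 (log2 change -2.11, SE 0.15, adjusted p = 2.35e-05), a call that held in its 5 fits of the same kind. In EV the same comparison gave -0.37 (adjusted p = 0.106; 0.0315 without the first dTAG13 library). With dTAG13 against DMSO the difference was -0.12 (95% interval -0.46 to 0.23).

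The effect of OE on Dnmt3l differed between the days. The OE effect at day 6 minus that at day 2 was -1.74 on the log2 scale (SE 0.22, adjusted p = 0.0165). It kept its direction without each library in turn (-1.91 to -1.56), but the call was lost in 7 of those 9 fits, with adjusted p of up to 0.133: those without EV replicate 2 or either OE library at day 2, or without any 1 of the 4 libraries of day 6. For Dnmt3b the same difference was -1.03 (SE 0.18), which missed the threshold (adjusted p = 0.0607) and passed it without the first dTAG13 library (adjusted p = 0.00203). Dnmt3l overlaps Aire, a gene on the opposite strand. Aire was at 11.7 and 8.96 FPKM in OE and 13.1 and 11.3 FPKM in EV at day 6, and at 0.575 to 2.44 FPKM in the 8 libraries of day 2. The strand setting is not given in the sources used here, so reads of the 2 genes cannot be told apart where they overlap.

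Dnmt3a (chr12:3806007-3914443, plus strand) stayed low and varied between replicates. Its level was 10.7 and 9.60 FPKM in OE and 8.70 and 11.2 FPKM in EV at day 6, 14.8 and 13.9 FPKM in OE and 9.35 and 12.3 FPKM in EV at day 2, and 12 and 6.31 FPKM with dTAG13 against 9.67 and 11.2 FPKM with DMSO. It passed no test in any of the 7 comparisons with all libraries. Without the first dTAG13 library it passed in dTAG13 against DMSO (-0.65, adjusted p = 0.029) and in OE at day 6 against day 2 (-0.46, adjusted p = 0.021). The dTAG13 value then rests on 1 library, at 6.31 FPKM, assumed to vary like the other groups. The antisense genes that overlap Dnmt3a and Dnmt3b were not in the table.

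The balance of the de novo genes differed between groups, given here as ratios with no test. The ratio of Dnmt3b to Dnmt3a FPKM was 1.21 ± 0.00379 in OE and 2.43 ± 0.286 in EV at day 6 (mean ± SD, n = 2 each). At day 2 it was 5.79 ± 0.0969 in OE and 7.20 ± 1.90 in EV, and 3.08 ± 1.49 with dTAG13 against 4.09 ± 0.110 with DMSO. The ratio of Dnmt3l to Dnmt3b was 0.789 ± 0.0412 in OE and 1.46 ± 0.0439 in EV at day 6. It was 1.79 ± 0.00326 with dTAG13 and 1.14 ± 0.0612 with DMSO. Dnmt3c, a rodent duplicate of Dnmt3b known for its role in male germ cells, was not in the table; in the annotation it starts 8922 bases past the end of Dnmt3b, and how the counting treated reads that fit both genes is not stated.

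The start regions of Dnmt3b, Dnmt3l and Zfp57, the genes with the largest changes in the OE and dTAG13 comparisons, are shown because their CpG content differs. The sequences are the 250 bases before the annotated starts in RefSeq, build GRCm38.p6 (the same assembly as mm10), all on the plus strand and read 5′ to 3′; capitals mark CpG sites.
Dnmt3b, chr2:153649199-153649448: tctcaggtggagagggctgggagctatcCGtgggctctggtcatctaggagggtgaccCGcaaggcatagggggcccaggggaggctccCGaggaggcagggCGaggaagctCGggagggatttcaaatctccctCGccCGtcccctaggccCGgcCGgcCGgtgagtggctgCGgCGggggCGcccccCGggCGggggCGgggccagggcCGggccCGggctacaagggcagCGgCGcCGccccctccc
Dnmt3l, chr10:78049592-78049841: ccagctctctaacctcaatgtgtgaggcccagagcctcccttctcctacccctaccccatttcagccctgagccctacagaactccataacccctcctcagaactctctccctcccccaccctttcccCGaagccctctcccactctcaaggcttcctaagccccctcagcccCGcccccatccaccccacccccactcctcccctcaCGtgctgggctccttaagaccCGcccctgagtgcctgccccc
Dnmt3l, chr10:78055085-78055334: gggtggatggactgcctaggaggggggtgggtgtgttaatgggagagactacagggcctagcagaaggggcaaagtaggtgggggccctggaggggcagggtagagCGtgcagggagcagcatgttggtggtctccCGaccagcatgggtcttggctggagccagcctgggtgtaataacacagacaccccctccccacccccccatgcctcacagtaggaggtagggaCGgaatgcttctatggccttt
Zfp57, chr17:37000913-37001162: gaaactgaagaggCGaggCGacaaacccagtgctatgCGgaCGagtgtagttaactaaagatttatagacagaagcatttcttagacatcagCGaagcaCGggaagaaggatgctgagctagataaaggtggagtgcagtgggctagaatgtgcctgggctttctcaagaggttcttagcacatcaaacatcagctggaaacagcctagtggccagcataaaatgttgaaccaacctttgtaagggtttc
The Dnmt3b window holds 21 CpG sites and is 75.2% G and C; 83.7% of the 32851 windows of this length in the table held fewer CpG sites, and their median was 6. The Dnmt3l windows hold 4 and 3 CpG sites and the Zfp57 window 6. These 4 windows overlap no exon in GENCODE M21. A further Dnmt3l start (5 CpG sites) overlaps an exon of Aire and 2 further Zfp57 starts overlap exons of Zfp57, and those are not shown. On either strand, GGGCGG, the core of an SP1 site, occurs 3 times in the Dnmt3b window, 2 times in the first Dnmt3l window shown and not in the other 2, and it is held by 32.7% of all windows. The octamer ATTTGCAT, bound by OCT4 family factors and held by 1.60% of windows, occurs in none of the 4. TTTNNCGC, an E2F-like motif held by 4.28% of windows, occurs 1 time, in the Zfp57 window, and GCCNNNGGC, of TFAP2 factors and held by 13.7%, in none of the 4. These matches are letters in a window, not sites. The table gives 1 FPKM value per gene, so the starts of Dnmt3l cannot be told apart.

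Dnmt1 (chr9:20907209-20959888, minus strand) and Uhrf1 (chr17:56303321-56323486, plus strand), the maintenance pair, were among the most abundant of the 9 genes throughout. Dnmt1 was at 113 and 108 FPKM in OE and 99.9 and 109 FPKM in EV at day 6, at 137 and 131 FPKM in OE and 144 and 136 FPKM in EV at day 2, and at 121 and 103 FPKM with dTAG13 and 137 and 134 FPKM with DMSO. Its highest group mean was 1.34 times its lowest, the smallest span of the 9 genes. It fell at day 6 against day 2 in EV (log2 change -0.42, SE 0.10, adjusted p = 0.0152), where the libraries did not overlap, and the call was lost without either EV library of day 2 or without EV replicate 1 of day 6 (adjusted p of up to 0.129). In OE the change was -0.28 (adjusted p = 0.0646; 0.017 without the first dTAG13 library). With dTAG13 it was -0.28 (adjusted p = 0.102), and without that library -0.39, adjusted p = 0.0237. OE and EV differed by 0.08 at day 6 and -0.07 at day 2, within the replicate spread.

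Uhrf1 varied more than Dnmt1. It was at 126 and 124 FPKM in OE and 127 and 126 FPKM in EV at day 6. At day 2 it was at 197 and 195 FPKM in OE and 152 and 152 FPKM in EV, and at 103 and 68.1 FPKM with dTAG13 against 124 and 133 FPKM with DMSO. The highest 2 libraries were thus those of OE at day 2 and the lowest 2 those of dTAG13. Uhrf1 fell with dTAG13 against DMSO (log2 change -0.62, SE 0.16, adjusted p = 0.0327); the call was lost without either DMSO library, and the change ran over -0.91 to -0.32 when 1 library was left out. It fell in OE at day 6 against day 2 (log2 change -0.64, SE 0.16, adjusted p = 0.0111), a call lost without any 1 of those 4 libraries although the change kept to -0.66 to -0.63. OE against EV at day 2 gave 0.36 (95% interval 0.02 to 0.71, adjusted p = 0.377), and it passed the threshold without the first dTAG13 library (adjusted p = 0.0145). The ratio of Uhrf1 to Dnmt1 FPKM was 1.46 ± 0.0442 in OE and 1.08 ± 0.0462 in EV at day 2, and 0.755 ± 0.136 with dTAG13 against 0.952 ± 0.0647 with DMSO.

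Tet1 (chr10:62804570-62908996, minus strand), the more abundant oxidase gene, was at 28.0 and 24.9 FPKM in OE and 15.7 and 19.7 FPKM in EV at day 6, at 26.2 and 28.3 FPKM in OE and 22.4 and 32.2 FPKM in EV at day 2, and at 16.6 and 17.2 FPKM with dTAG13 and 27.6 and 30.3 FPKM with DMSO. It was low in EV at day 6 and with dTAG13, and the EV libraries of day 2 spanned the OE libraries of that day. Tet1 fell with dTAG13 against DMSO (log2 change -0.74, SE 0.18, adjusted p = 0.0314), a call lost without either DMSO library (adjusted p of up to 0.181). It fell in EV at day 6 against day 2 (log2 change -0.58, SE 0.18, adjusted p = 0.0456), a call lost without EV replicate 2 of day 2 or either EV library of day 6 (adjusted p of up to 0.296). In OE the change between the days was -0.04 (95% interval -0.45 to 0.37). OE against EV at day 6 gave 0.56 (SE 0.18, adjusted p = 0.141), with both OE libraries above both EV libraries, and without the first dTAG13 library the adjusted p was 0.0219.

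Tet2 (chr3:133463679-133545139, minus strand) was at 15.1 and 14.9 FPKM in OE and 11.7 and 15.0 FPKM in EV at day 6, at 9.16 and 10.8 FPKM in OE and 7.04 and 10.2 FPKM in EV at day 2, and at 3.51 and 4.76 FPKM with dTAG13 and 7.49 and 7.75 FPKM with DMSO. It was the only 1 of the 9 genes with a positive value at day 6 against day 2, 0.55 in OE (adjusted p = 0.0889) and 0.59 in EV (adjusted p = 0.0848), with no overlap of libraries in either. Both missed the threshold with all libraries and passed it without the first dTAG13 library (adjusted p = 0.0125 in OE and 0.0099 in EV). With dTAG13 the change was -0.76 (SE 0.22, adjusted p = 0.0535). The ratio of Tet1 to Tet2 FPKM was 1.76 ± 0.120 in OE and 1.33 ± 0.0188 in EV at day 6, 2.74 ± 0.160 in OE and 3.17 ± 0.0205 in EV at day 2, and 4.18 ± 0.794 with dTAG13 against 3.80 ± 0.158 with DMSO. Tet3 was not in the table.

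Zfp57 (chr17:37001163-37010635, plus strand) was the gene of the 9 with the largest change under dTAG13. It was at 25.3 and 34.9 FPKM with dTAG13 and 76.8 and 86.1 FPKM with DMSO, a ratio of means of 0.370 (log2 change -1.42, SE 0.17, adjusted p = 0.00144). The call held without each of the 4 libraries (-1.65 to -1.2), but each of those fits has 1 library in a group. Such a group adds no spread of its own, so these fits say little of how stable the call is. In the other groups it was at 36.5 and 44.0 FPKM in OE and 51.5 and 56.7 FPKM in EV at day 6, and at 73.8 and 63.0 FPKM in OE and 56.8 and 62.7 FPKM in EV at day 2. The 2 dTAG13 libraries were below all 10 others. Zfp57 fell in OE at day 6 against day 2 (log2 change -0.75, SE 0.17, adjusted p = 0.00764), a call lost without OE replicate 1 of either day (adjusted p of up to 0.074); in EV the change was -0.14 (95% interval -0.52 to 0.23). OE against EV gave -0.42 at day 6 (adjusted p = 0.224; 0.0235 without the first dTAG13 library) and 0.19 at day 2. The difference between those effects was -0.61 (adjusted p = 0.378; 0.0394 without that library). DMSO against EV at day 2 was 0.44 (adjusted p = 0.465; 0.0435 without that library).

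Trim28 (chr7:12999114-13031035, plus strand) was at 91.7 and 86.9 FPKM in OE and 96.0 and 92.4 FPKM in EV at day 6, at 169 and 147 FPKM in OE and 128 and 131 FPKM in EV at day 2, and at 143 and 107 FPKM with dTAG13 and 130.0 and 135 FPKM with DMSO. The 4 libraries of day 6 were below all 8 of day 2. Trim28 fell at day 6 against day 2 in OE (log2 change -0.81, SE 0.13, adjusted p = 0.00164), which held in the 5 fits without 1 of its 4 libraries or the first dTAG13 library, and in EV (log2 change -0.46, SE 0.13, adjusted p = 0.0339), which was lost without any 1 of the 4 EV libraries (adjusted p of up to 0.15). With dTAG13 the change was -0.10 (95% interval -0.40 to 0.20), and the ratio of Zfp57 to Trim28 FPKM was 0.252 ± 0.106 with dTAG13 and 0.615 ± 0.0339 with DMSO. Trim28 overlaps Zbtb45, a gene on the other strand, which was at 5.89 and 11 FPKM with dTAG13 and 26.9 and 25.9 FPKM with DMSO; reads of the overlap cannot be told apart.

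The order of levels among the 9 genes changed with the groups. In EV at day 2 it ran from Uhrf1 (152 ± 0.363 FPKM, mean ± SD, n = 2) through Dnmt1, Trim28, Dnmt3b, Zfp57, Dnmt3l and Tet1 to Dnmt3a and Tet2 (8.62 ± 2.24 FPKM), and only the last pair of neighbours overlapped in their libraries. In OE at day 6 it ran from Uhrf1 (125 ± 1.56 FPKM) through Dnmt1, Trim28, Zfp57, Tet1, Tet2 and Dnmt3b to Dnmt3a and Dnmt3l (9.73 ± 1.28 FPKM), which overlapped. There both oxidase genes stood above Dnmt3b, Dnmt3a and Dnmt3l. In EV at day 6 the order was Uhrf1, Dnmt1, Trim28, Zfp57, Dnmt3l, Dnmt3b, Tet1, Tet2 and Dnmt3a, with no neighbours overlapping. With dTAG13, Trim28 and Dnmt1 overlapped at the top, Uhrf1 came next, and Zfp57 and Dnmt3b overlapped below Dnmt3l. With DMSO, Dnmt1, Trim28 and Uhrf1 overlapped at the top and Zfp57 stood alone below them.

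**Figure D2:**
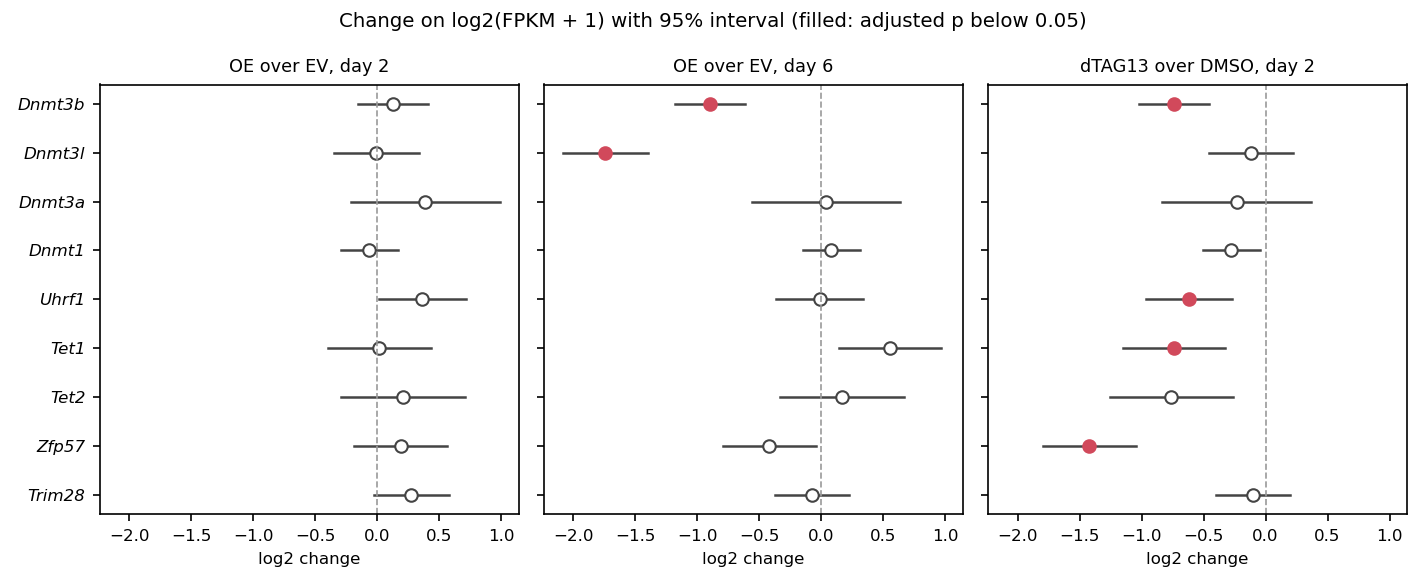
Log2 changes of the 9 genes with 95% intervals (horizontal axis, log2 of FPKM + 1) for OE over EV at day 2, OE over EV at day 6 and dTAG13 over DMSO at day 2; filled points have an adjusted p below 0.05. Dnmt3b was lower in OE at day 6 and with dTAG13, Dnmt3l in OE at day 6, and Zfp57, Tet1 and Uhrf1 with dTAG13.

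Counted over the 9 genes, OE against EV at day 2 changed 0 of 9 by limma, with 1 of 9 at an unadjusted p below 0.05 (Uhrf1). Over all genes 0.846% were called (0.440% higher and 0.406% lower). At day 6 OE lowered 2 of 9 and raised 0 of 9, where 3.72% of all genes were called (1.92% higher and 1.79% lower). The median change of the 9 genes was -0.01, against 0.05 over all genes. The difference between the 2 OE effects was called for 1 of 9, Dnmt3l, where 0.232% of all genes were called (0.0663% higher and 0.166% lower).

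With dTAG13 against DMSO 4 of 9 fell and 0 of 9 rose, where 12.2% of all genes were called (4.01% higher and 8.21% lower). The median change was -0.62 for the 9 genes and -0.13 over all genes, and 9 of 9 values were below 0. Relative to the median gene, Zfp57 was at -1.29, Tet2 at -0.63, Dnmt3b and Tet1 at -0.61 each, Trim28 at 0.03 and Dnmt3l at 0.01. A fit of the dTAG13 and DMSO libraries alone, with 2 libraries a group, called 0 of 9 and 0 of all genes; the adjusted p of Zfp57 was then 0.251.

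At day 6 against day 2, 5 of 9 fell in OE, where 32.3% of all genes were called (17.5% higher and 14.7% lower), and 4 of 9 fell in EV, where 23.7% were called (13.3% higher and 10.5% lower). No gene of the 9 rose past the threshold in either, and Dnmt3b and Trim28 fell in both. DMSO against EV at day 2 called 1 of 9, where 0.390% of all genes were called (0.249% higher and 0.141% lower).

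For dTAG13 against DMSO, leaving out either dTAG13 library raised the counts over all genes and those of the 9. Either fit has 1 library with dTAG13, which adds no spread of its own. Leaving out the first dTAG13 library raised both counts in every comparison. Without it OE against EV called 1 of 9 at day 2 (14.1% of all genes) and 4 of 9 at day 6 (25.4%), and the difference of the effects 3 of 9 (11.1%). dTAG13 against DMSO called 6 of 9 (23.3%). Day 6 against day 2 called 8 of 9 in OE (59.0%) and 7 of 9 in EV (52.2%), and DMSO against EV called 2 of 9 (8.10%). OE against EV at day 6 and at day 2 share no library. Day 6 against day 2 uses the same libraries as OE against EV, so those values are set side by side and are not separate evidence.

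**Figure D3:**
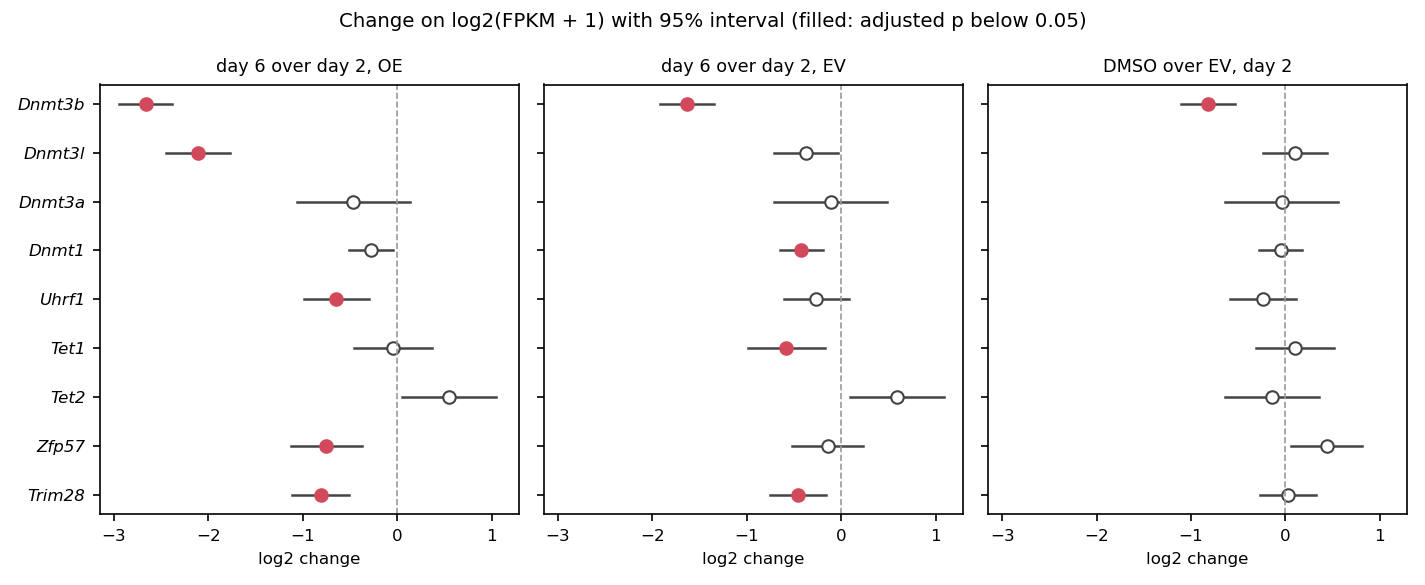
Log2 changes of the 9 genes with 95% intervals (horizontal axis, log2 of FPKM + 1) for day 6 over day 2 in OE, day 6 over day 2 in EV, and DMSO over EV at day 2; filled points have an adjusted p below 0.05. Dnmt3b lay left of 0 in all 3 panels, Dnmt3l was filled in OE alone, and Tet2 lay right of 0 in both day panels without passing the threshold.

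Partners of the maintenance pair held 10 genes, of which 10 were tested. With OE against EV at day 6, 1 of 10 rose and 0 fell: Dppa3, whose product STELLA is known in mouse to keep UHRF1 away from chromatin. Dppa3 was at 21.2 and 20.4 FPKM in OE and 7.05 and 9.63 FPKM in EV (log2 change 1.24, SE 0.19, adjusted p = 0.00974). It rose with dTAG13 as well (75.8 and 69.2 FPKM, against 42.4 and 31.6 FPKM with DMSO; 0.96, SE 0.19, adjusted p = 0.0124), where Lig1, the ligase that joins replicated DNA, fell (-0.61, adjusted p = 0.00788); that made 1 of 10 up and 1 of 10 down. In OE at day 6 against day 2, Dppa3 (-0.82) and Pcna (-0.39) fell and Uhrf2, a paralogue of Uhrf1, rose (1.31, SE 0.22, adjusted p = 0.00177). Uhrf2 was at 19.9 and 22.9 FPKM in OE at day 6 and 7.36 and 8.76 FPKM in OE at day 2. In EV, Dppa3 (-1.64) and Cdca7 (-0.59), a partner of the HELLS remodeller, fell. Over all genes, 3.72% were called in OE against EV at day 6 and 12.2% with dTAG13. Between the days the shares were 32.3% in OE and 23.7% in EV. Without the first dTAG13 library the counts were 3 up and 0 down for OE against EV at day 6 (25.4% of all genes called), 1 up and 4 down with dTAG13 (23.3%), 1 up and 5 down between the days in OE (59.0%), and 1 up and 2 down in EV (52.2%).

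Cell cycle genes were looked at beside Uhrf1, since it is expressed in dividing cells. Of 10 genes 0 were called with dTAG13 against DMSO when all libraries were used. Their summed level was 2474 and 1769 FPKM with dTAG13 and 2266 and 2092 FPKM with DMSO. The median change of the 10 was -0.09 there, against -0.13 over all genes. With the first dTAG13 library left out it was -0.39, against -0.17 over all genes, and the change of Uhrf1 was -0.91. That fit has 1 library with dTAG13. Aurka, a mitotic kinase, was called higher in OE than in EV at day 6 (0.43) and at day 2 (0.56), as 1 of 10 each time. In OE at day 6 against day 2, 1 of 10 rose and 4 fell, with Mcm5 (-0.79) and Mcm2 (-0.60), of the replicative helicase, Pcna and Aurka lower and Top2a (0.59) higher. Mcm2 was the 1 gene of 10 called in DMSO against EV (1.0). Over all genes, 12.2% were called with dTAG13, 32.3% between the days in OE and 0.390% in DMSO against EV. For OE against EV the shares were 3.72% at day 6 and 0.846% at day 2. The part of cell division in the Uhrf1 values was not tested.

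Of the partners of de novo methylation, 7 of 8 were tested. With dTAG13 against DMSO, 2 of 7 fell and 0 rose: Ehmt1 (11.4 and 19.7 FPKM, against 29.4 and 30.8 FPKM; log2 change -0.96, SE 0.20, adjusted p = 0.0181) and Ehmt2 (15.8 and 16.0 FPKM, against 25.8 and 26.3 FPKM; -0.68, SE 0.15, adjusted p = 0.0224), which encode the paired H3K9 methyltransferases GLP and G9a. Their median change was -0.50, against -0.13 over all genes. Ehmt2 also fell in OE at day 6 against day 2 (-0.95, adjusted p = 0.00135). In OE against EV at either day and in EV between the days 0 of 7 were called. The shares of all genes called lower were 8.21% with dTAG13 and 14.7% between the days in OE. When the first dTAG13 library was left out, 4 of 7 fell with dTAG13 (23.3% of all genes called), 1 rose and 4 fell between the days in OE (59.0%), 1 rose and 2 fell in EV (52.2%), and Ehmt2 and Morc1 fell in OE against EV at day 6 (25.4%).

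Of the genes for oxidation and base excision repair, 11 of 14 were tested. Apex1, the abasic site endonuclease, fell at day 6 against day 2 in OE (-1.2) and in EV (-0.51), and with dTAG13 (-0.58). Parp1, a sensor of DNA breaks, fell between the days in OE (-0.60) and in EV (-0.44). Cxxc5, which encodes a CXXC zinc finger protein, fell in EV (-1.01), and Neil2, a DNA glycosylase gene, rose in OE (0.68). Xrcc1, the scaffold of single-strand break repair, rose with dTAG13: it was at 131 and 109.7 FPKM with dTAG13 and 61.5 and 57.8 FPKM with DMSO (log2 change 1.0, SE 0.12, adjusted p = 0.0018). In OE at day 6, 1 of 11 rose and 2 fell against day 2, in EV 0 rose and 3 fell, with dTAG13 1 rose and 1 fell, and with OE against EV 0 were called at either day. Over all genes 32.3%, 23.7% and 12.2% were called in OE, in EV and with dTAG13, in either direction. In the fit that left out the first dTAG13 library, 2 rose and 4 fell between the days in OE (59.0% of all genes called) and the same counts held in EV (52.2%); with dTAG13 1 rose and 2 fell (23.3%), and Apex1 was no longer called there (-0.37, adjusted p = 0.0547).

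The partners of TRIM28 and of imprints held 12 tested genes of 13. At day 6 against day 2, 4 of 12 fell in OE, where 14.7% of all genes fell, and 3 of 12 in EV, where 10.5% fell, and 0 of 12 rose in either. Atf7ip, which carries SETDB1, fell most in both: it was at 17.5 and 15.5 FPKM in OE at day 6 and 46.0 and 41.3 FPKM in OE at day 2 (-1.35, SE 0.16, adjusted p = 0.000229), and at 19.8 and 20.6 FPKM in EV at day 6 and 39.3 and 38.6 FPKM in EV at day 2 (-0.91, SE 0.16, adjusted p = 0.003). Setdb1, the H3K9 methyltransferase that TRIM28 recruits, fell in OE (-0.72) and in EV (-0.54), as did Cbx5, which encodes HP1 alpha (-0.57 in OE and -0.80 in EV). Cbx1, which encodes HP1 beta, fell in OE (-0.79). With dTAG13, Smchd1 (-1.05), a chromatin protein of the inactive X and of some imprinted clusters, and Cbx1 (-0.43) fell. Zfp809, a zinc finger gene known in mouse for silencing retroviruses through TRIM28, rose (0.82), which made 1 up and 2 down of 12. Over all genes 12.2% were called with dTAG13. Between OE and EV 0 of 12 were called at day 6 or at day 2. Without the first dTAG13 library the counts were 1 up and 5 down with dTAG13 (23.3% of all genes called), 1 up and 4 down between the days in OE (59.0%), and 0 up and 6 down in EV (52.2%).

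Of the genes listed as methyl-CpG readers, 5 of 7 were tested, and Mbd3 was the 1 that fell between the days, in both OE and EV. Mbd3 was at 94.0 and 91.8 FPKM in OE at day 6 and 223 and 178 FPKM in OE at day 2 (-1.09, SE 0.18, adjusted p = 0.00143), with -0.90 in EV. Whether its product binds methylated CpG was not tested, so this fall is not read as one of methyl-CpG readers. In the methyl donor cycle (10 of 10 tested), 4 fell and 0 rose at day 6 against day 2 in OE, where 32.3% of all genes were called, and 4 fell and 1 rose in EV, where 23.7% were. Mat2a, which makes S-adenosylmethionine, the donor of the methyl group, was at 106 and 104 FPKM in OE at day 6 and 290.3 and 249 FPKM in OE at day 2 (log2 change -1.35, SE 0.16, adjusted p = 0.000291), and changed by -1.01 in EV (adjusted p = 0.0024). Shmt1, of folate metabolism, fell in OE (-0.98), in EV (-0.77) and with dTAG13 (-0.66). Ahcy, which clears S-adenosylhomocysteine, fell in EV (-0.64). Shmt2, the mitochondrial counterpart of Shmt1, rose in OE against EV at day 2, with 189 and 179 FPKM in OE and 102 and 91.6 FPKM in EV (0.92, SE 0.10, adjusted p = 0.00654). It was the 1 gene of 10 called there, where 0.846% of all genes were called. At day 6 against day 2 Shmt2 fell in OE (-0.40) and rose in EV (0.40). Leaving out the first dTAG13 library, 2 of 10 rose and 6 fell between the days in OE (59.0% of all genes called), 3 fell with dTAG13 (23.3%), 2 rose in OE against EV at day 2 (14.1%), 3 rose and 1 fell at day 6 (25.4%), and the counts between the days in EV and of the readers were as with all libraries.

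**Figure D4:**
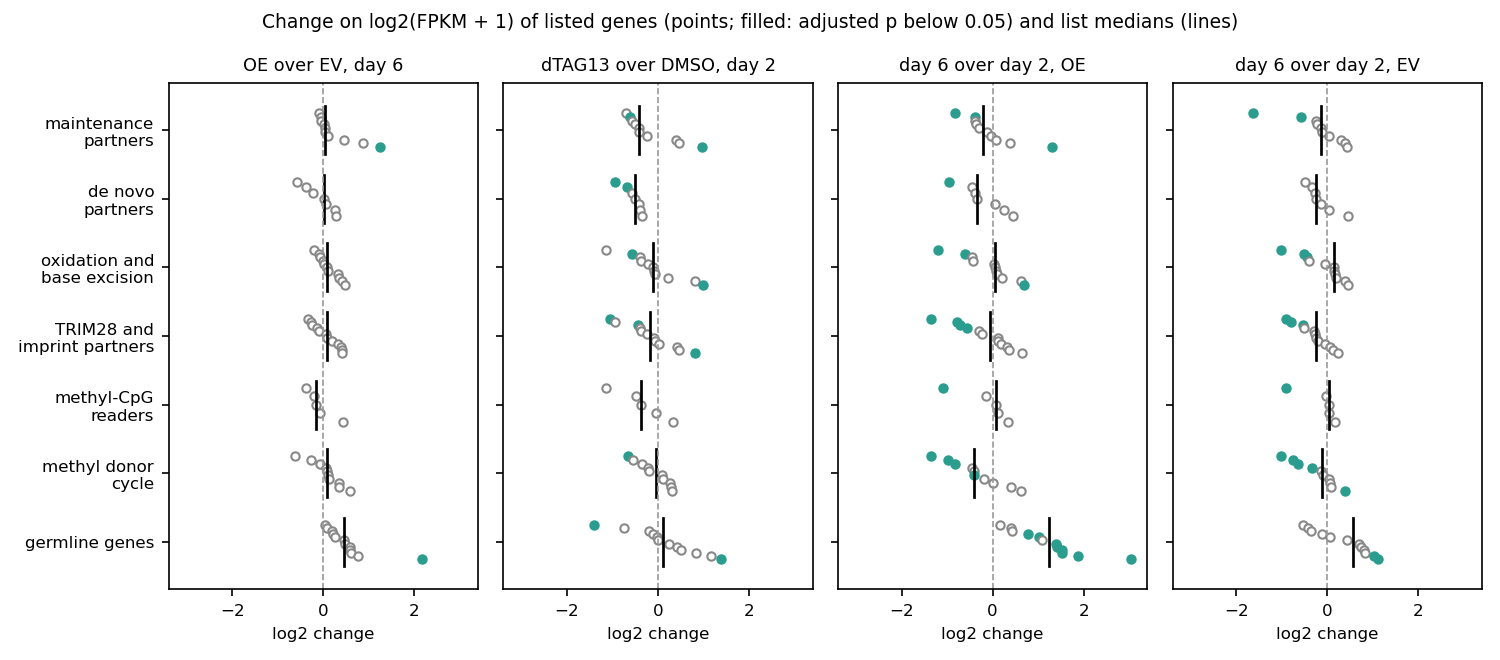
Log2 changes of the tested genes of 7 lists (points; filled for an adjusted p below 0.05) and list medians (black lines) for OE over EV at day 6, dTAG13 over DMSO, and day 6 over day 2 in OE and in EV. The germline genes lie furthest to the right in OE at day 6 over day 2, with a median of 1.24.

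Germline genes whose promoters are methylated in somatic cells are known in mouse to be kept silent by it, and 12 of 13 were tested. In OE at day 6 against day 2, 8 of 12 rose and 0 fell, where 17.5% of all genes rose, and the median change was 1.24, against 0.08 over all genes. In EV 2 of 12 rose, where 13.3% of all genes rose (Taf7l, 1.11, and Asz1, 1.02), with a median of 0.56. Both were low in EV: Taf7l had means of 1.54 FPKM at day 6 and 0.18 FPKM at day 2, and Asz1 1.06 and 0.011 FPKM. The precision of such low values is unknown. Dazl, an RNA-binding protein of germ cells, was at 31.7 and 22.8 FPKM in OE and 4.82 and 5.53 FPKM in EV at day 6, and at 2.34 and 2.41 FPKM in OE and 1.85 and 3.34 FPKM in EV at day 2. It was the 1 gene of the 12 called between OE and EV at day 6 (log2 change 2.18, SE 0.46, adjusted p = 0.0326), and in OE it rose at day 6 against day 2 (3.05, SE 0.46, adjusted p = 0.000973). Sycp3, of the meiotic chromosome axis, rose in OE between the days (1.87), as did Ddx4 (1.53), the VASA helicase, and Asz1 (1.52), of the piRNA pathway. Asz1 was low in OE too, with means of 2.13 FPKM at day 6 and 0.086 FPKM at day 2. The first dTAG13 library had 12.2 FPKM of Dazl and 31.7 FPKM of Sycp3, against 2.97 and 6.21 FPKM in the second. Without that library 11 of 12 rose in OE between the days, where 59.0% of all genes were called in either direction. In the same fit 7 of 12 rose and 3 fell in EV (52.2% called), 6 of 12 rose in OE against EV at day 6 (25.4%) and 4 of 12 fell at day 2 (14.1%). With dTAG13 against DMSO, Hormad1 rose (1.39) and Tex19.1 fell (-1.40), as 1 of 12 each. With all libraries 12.2% of all genes were called there, and 3.72% in OE against EV at day 6.

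Imprinted genes are the known targets of ZFP57 and TRIM28, and 15 of 26 were tested. With dTAG13 against DMSO, where Zfp57 fell, 0 of 15 rose and 2 fell, where 12.2% of all genes were called: Cdkn1c (4.14 and 13.1 FPKM, against 19.8 and 25.4 FPKM; log2 change -1.46, SE 0.41, adjusted p = 0.0451) and Grb10 (3.88 and 7.20 FPKM, against 14.0 and 14.1 FPKM; -1.25, SE 0.25, adjusted p = 0.0142). Without the first dTAG13 library the change of Cdkn1c was -0.73 (adjusted p = 0.0497). The list median was -0.02, against -0.13 over all genes. With OE against EV at day 6, Grb10 fell (-1.29, SE 0.25, adjusted p = 0.0239) and Phlda2 rose (0.99, SE 0.13, adjusted p = 0.00507). Phlda2 was at 183 and 184 FPKM in OE and 104 and 81.4 FPKM in EV at day 6, and it was the 1 imprinted gene called at day 2 as well (0.95). In OE at day 6 against day 2, 1 of 15 rose (Igf2r, 1.27) and 5 fell, among them Mest (-1.64), Mcts2 (-1.57) and Nnat (-0.97). In EV, Meg3 rose (0.85) and Mcts2 fell (-0.72). Over all genes, 32.3% were called between the days in OE and 23.7% in EV. For OE against EV the shares were 3.72% at day 6 and 0.846% at day 2. The fit without the first dTAG13 library called 1 of 15 up and 3 down with dTAG13 (23.3% of all genes called), 2 up and 7 down for OE against EV at day 6 (25.4%), 2 up and 3 down at day 2 (14.1%), 2 up and 8 down between the days in OE (59.0%), and 3 up and 3 down in EV (52.2%).

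Mest, an imprinted gene expressed from the paternal copy, set the dTAG13 and DMSO libraries apart from the rest. It was at 3.71 and 0.721 FPKM with dTAG13 and 0.639 and 0.992 FPKM with DMSO, while the 8 libraries of OE and EV held 16.3 to 58.6 FPKM. DMSO against EV at day 2 gave a log2 change of -4.95, SE 0.39, adjusted p = 0.000403. It was the 1 imprinted gene of 15 called in that comparison, where 0.390% of all genes were called.

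PGC markers also differed between these groups. In OE against EV at day 6, 2 of 8 rose and 0 fell: Dppa3 and Kit (1.08), the receptor that germ cells need to survive and migrate. At day 2, 0 of 8 rose and 1 fell: Nanos3, an RNA-binding protein gene of PGCs, at 18.5 and 11 FPKM in OE and 37.8 and 53.6 FPKM in EV (log2 change -1.59, SE 0.30, adjusted p = 0.0462). Between the days in OE, 3 of 8 rose and 2 fell at day 6. Kit (1.89), Itgb3 (1.37) and Prdm14 rose there, and Nanos3 (-1.82) and Dppa3 fell. In EV, 1 of 8 rose, Kit (1.26), and 3 fell, Nanos3 (-2.42), Dppa3 and Tfap2c (-1.05). Prdm14 was at 35.3 and 36.6 FPKM in OE at day 6 and 19.09 and 19.01 FPKM in OE at day 2 (0.88, SE 0.14, adjusted p = 0.00149). PRDM14 is known in mouse to repress Dnmt3b and Dnmt3l. With dTAG13 against DMSO, 2 of 8 rose, Dppa3 and Tfap2c (0.68), and 2 fell, Dnd1 (-0.65) and Prdm14 (-0.53). Over all genes, 3.72% were called in OE against EV at day 6 and 0.846% at day 2. The shares were 32.3% between the days in OE, 23.7% in EV and 12.2% with dTAG13. With that first dTAG13 library left out, 1 of 8 rose and 4 fell with dTAG13 (23.3% of all genes called), 4 rose and 1 fell for OE against EV at day 6 (25.4%), 2 rose and 3 fell at day 2 (14.1%), 3 rose and 3 fell between the days in EV (52.2%), and the counts in OE were 3 and 2 again (59.0%); Tfap2c was no longer called with dTAG13 (adjusted p = 0.069). The part of Prdm14 in the Dnmt3b and Dnmt3l values was not tested.

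Markers of other cells moved with some of these groups. Formative epiblast markers (6 of 8 in the table, 4 tested) summed to 66.0 and 63.9 FPKM in OE and 82.5 and 88.1 FPKM in EV at day 6, to 51.0 and 47.2 FPKM in OE and 49.6 and 53.8 FPKM in EV at day 2, and to 32.5 and 36.5 FPKM with dTAG13 against 58.7 and 46.2 FPKM with DMSO. The median change of the 4 tested with dTAG13 was 0.28, against -0.13 over all genes, and 0.01 without the first dTAG13 library. Otx2 rose at day 6 against day 2 in OE (1.74) and in EV (1.79). Primitive streak and mesoderm markers (4 of 7 in the table, 2 tested) summed to 7.94 and 12.5 FPKM with dTAG13 and 6.72 and 5.14 FPKM with DMSO, and Hand1 rose there (1.2), as it did in DMSO against EV (1.89). The median change of the 2 tested was 0.14 with dTAG13, against -0.13 over all genes, so the other tested gene had a negative value. Lef1 fell in OE against EV at day 6 (-1.63) and rose in EV between the days (1.27). Tead2 fell with dTAG13 (-0.80), with a mean of 25.3 FPKM against 44.7 FPKM with DMSO. Endoderm markers (2 of 6 in the table, 1 tested) summed to 4.68 and 6.39 FPKM in OE at day 6, 4.69 and 4.19 FPKM in EV at day 6 and at most 1.23 FPKM at day 2, and Gata4 rose between the days in OE (1.49) and in EV (1.39). Of 4 neural markers 2 were tested. Pax6, at low levels, fell with dTAG13 (-0.97, mean 0.15 against 1.24 FPKM) and between the days in OE (-0.80, mean 0.74 against 2.03 FPKM). The medians of the 2 tested were -0.21 and -0.09, so the other tested gene had a positive value in both. Of 5 fibroblast markers only Col1a1 was in the table, and it did not pass the filter. The part of these cells in the values of the 9 genes was not tested.

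The genes whose levels ran most like those of the 9 are given as a description over the 12 libraries, which share groups and their scaling. By Pearson's r of log2(FPKM + 1), Dnmt3b was most like Dido1 (0.986), Dhx8 (0.984) and Tbcb (0.983). Dnmt3l was most like Id3 (0.985), an inhibitor of basic helix-loop-helix factors and a known target of BMP signalling, and AA465934 (0.968). Id3 was at 33.1 and 32.6 FPKM in OE and 179.5 and 183 FPKM in EV at day 6, and at 260 to 373 FPKM in the 8 libraries of day 2. Zfp57 was most like Nacc1 (0.965), Dnmt1 like Hnrnpdl (0.952), Uhrf1 like Hspa4 (0.960), Tet1 like Naa15 (0.948) and Trim28 like Stk16 (0.983). Among the 9 genes themselves, the highest r was that of Trim28 with Dnmt3b (0.830) and the lowest that of Tet2 with Dnmt3l (-0.621).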

How the data were processed

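Poly(A)-enriched RNA of sorted PGCLCs was sequenced, per the labels' protocols. Per the submitters' processing notes, which give no order or settings, the tools were FastQC 0.10.1, Trim Galore 0.6.3, cutadapt (version not given), STAR 2.7.6a and Cufflinks 2.2.1, with build mm10. The authors deposited FPKM plus 1; the 1 was subtracted. Depth and strand setting are not given in the sources used here, so the precision of low FPKM is unknown.

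Genes with FPKM of at least 1 in 2 or more libraries (12059 of 12955) entered a limma fit of log2(FPKM + 1) (version 3.58.1, R 4.3.3): 1 model of 6 groups, trended prior variance, 6 residual and 3.86 prior degrees of freedom. Adjusted p (Benjamini-Hochberg) runs over all genes tested; below 0.05 is a call. Fold changes of low genes are understated on this scale. The fit was tested on simulated data. Positions came from GENCODE M21 and promoters from RefSeq (GRCm38.p6), 9 of 9 symbols matched.

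The 9 genes and the 15 gene lists were chosen with earlier results of these data known. All 9 genes are named; of each list, up to 4 called genes by size of change, and Tex10 as a check; 1 gene of the methyl donor list is not reported here. Genes most alike are the top 3 by r at most; Aire, Zbtb45 and Id3 were given levels after their values were seen. One library title spells the compound differently; its treatment field was used. Alternatives were pseudocounts of 0.1 and 5, other filters, median-ratio scaling, a replicate block, no trend, only the groups compared, and each library left out. A fit with a library left out has 1 library in that group, which adds no spread of its own.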

Additional observations from a re-analysis of the deposited data

Results flagged for a closer look

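The effect of OE on Dnmt3l differed between day 6 and day 2, by the test of that difference in limma. The OE effect at day 6 minus that at day 2 was -1.735 on the log2 scale (SE 0.22, adjusted p = 0.0165 with Benjamini-Hochberg). The call was lost in 7 of the 9 fits that left out 1 library, and without a trend in the prior variance. The direction was kept in all of them. Both OE libraries were below both EV libraries at day 6 (10.6 and 8.83 FPKM in OE, 32.7 and 37.0 FPKM in EV), while at day 2 the EV libraries spanned the OE libraries (47.5 and 42.9 FPKM in OE, 51.3 and 40.1 FPKM in EV). Aire, which overlaps Dnmt3l on the other strand, was at 11.7 and 8.96 FPKM in OE and 13.1 and 11.3 FPKM in EV at day 6, and its part in the result was not tested.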

How the results depend on the processing

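All 17 calls among the 9 genes kept their direction under every alternative run; the libraries left out were those of the groups compared and the first dTAG13 library. The number of the 9 genes called moved as follows. In a fit of only the groups compared, it was 4 for OE against EV at day 6, 3 for the difference of the OE effects, 0 for dTAG13 against DMSO and 8 for day 6 against day 2 in OE. Without a trend in the prior variance it was 0 for the difference, 2 for day 6 against day 2 in EV and 0 for DMSO against EV. Calls lost without the trend were those of Dnmt3l for the difference, Tet1 and Trim28 in EV, Uhrf1 with dTAG13 and Dnmt3b in DMSO against EV, and that of Tet1 in EV was also lost with a pseudocount of 0.1. With a mean FPKM of at least 5 it was 2 for the difference. With the replicate number as a block (replicate block), it was 0 for DMSO against EV; the numbers are shared by name only (correlations of deviations from -0.135 to 0.252), and the block gave 5 for dTAG13 against DMSO. Without the first dTAG13 library, OE against EV kept its changes: 0.5565 for Tet1 and -0.4206 for Zfp57 at day 6, and 0.3647 for Uhrf1 at day 2. Their adjusted p fell, in a model that takes the residual variance of a gene from all groups. The cause of these moves was not tested beyond the libraries and genes each alternative leaves out.

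With each of those libraries left out in turn, the counts of the 9 genes ran from 0 to 1 for OE against EV at day 2, from 1 to 4 at day 6, from 0 to 3 for the difference, from 1 to 6 for dTAG13 against DMSO, from 1 to 7 for day 6 against day 2 in EV, from 3 to 8 in OE, and from 0 to 2 for DMSO against EV. The highest of each came without the first dTAG13 library.

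Uncalled values near 0 changed sign. Under median-ratio scaling Tet1 was at -0.0196 for OE against EV at day 2, Dnmt3a at -0.0188 at day 6, and Trim28 at -0.00995 for DMSO against EV. With libraries left out, OE against EV at day 2 ran from -0.183 to 0.167 for Dnmt3l, from -0.235 to 0.270 for Tet1 and from -0.0348 to 0.445 for Tet2. At day 6 it ran from -0.127 to 0.199 for Dnmt3a and from -0.000511 to 0.329 for Tet2. The difference ran from -0.281 to 0.199 for Tet2. The dTAG13 comparison ran from -0.645 to 0.181 for Dnmt3a and from -0.309 to 0.109 for Trim28. Day 6 against day 2 ran from -0.296 to 0.0705 for Dnmt3a in EV and from -0.122 to 0.0369 for Tet1 in OE. DMSO against EV ran from -0.223 to 0.144 for Dnmt3a, from -0.0723 to 0.278 for Dnmt3l, from -0.151 to 0.354 for Tet1 and from -0.379 to 0.101 for Tet2.

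The read depth is not known, so the counting error of the low genes Dnmt3a and Tet2 could not be given.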
